A study of Mus musculus with 2 samples.

Results

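Notch signalling lets neighbouring cells instruct each other. Ligands of the Delta and Jagged families on one cell bind Notch receptors on the next, the receptor is cleaved, and its intracellular part enters the nucleus and joins the DNA-binding protein RBPJ to switch on genes of the Hes and Hey families. In the early embryo the pathway is known for setting the rhythm of somite formation and for holding back neuronal differentiation. The 10 genes described here are the receptors Notch1, Notch2 and Notch3, the ligands Dll1, Dll3, Jag1 and Jag2, the receptor-modifying enzyme Lfng, and the targets Hes1 and Hey1. They were read through the 14 non-control probes, of 55681 on the array, that carried one of these 10 gene names, out of 34650 names in all.

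RNA was measured on 2 one-colour microarrays, 1 per group, both from the ES cell line E14Tg2A of mouse strain 129/Ola with no engineered allele named. EpiSC, epiblast stem cells that model the post-implantation epiblast, came from ES cells given 20 ng/mL Activin A together with FGF2 at 12 ng/mL, in a chemically defined minimal medium. ELA-EpiSC received the same factors after the ES cells had first formed Epiblast-Like Aggregates (ELA), floating clusters that arise once serum and LIF are withdrawn. The comparison asks how similar the products of both routes are. Each RNA was a pool of 3 experiments on 1 cell line, so culture variation lies inside the pools, no difference below has a replicate check, and no test was possible. The labels give no time in culture. The sources recorded for the samples read otherwise, an Argonaute precipitate for EpiSC and total RNA for ELA-EpiSC, in either case of cells at 0DIV. Titles and descriptions name the cultures above, and these were followed.

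The probes are the measured sequence of each gene. Those of the 3 members with the widest differences, and of Hes1 as the other target, are shown by their first 30 bases, 5′ to 3′ along the transcript, with mm9 coordinates from the array files. The second Dll1 probe and both Notch2 probes are shown because the probes of these genes lie in different places of the transcript. The array files give no exon, coding or UTR annotation for a probe.
Dll1, chr17:15504653-15504682, minus strand: gattactatgagccagtctttccttgaact
Dll1 dimmer probe, chr17:15513756-15513785, minus strand: acactatccggaccccaattccccatttcc
Jag1, chr2:136907463-136907492, minus strand: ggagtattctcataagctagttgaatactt
Hey1, chr3:8663462-8663491, minus strand: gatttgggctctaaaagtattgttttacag
Hes1, chr16:30067820-30067849, plus strand: ttaaaatatcttcctttggggaagtttatt
Notch2, chr3:97953914-97953943, plus strand: ccacttgaagtcttgcatagaaatgaacca
The only Notch1 probe above background and the dimmer Notch2 probe are given whole, over 60 bases.
Notch1, chr2:26319440-26319499, minus strand: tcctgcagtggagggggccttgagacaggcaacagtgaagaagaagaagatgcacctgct
Notch2 dimmer probe, chr3:97951233-97951292, plus strand: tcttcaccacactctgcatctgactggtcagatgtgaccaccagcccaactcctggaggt

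Levels below are log2 normalized intensities, and differences are log2 ELA-EpiSC minus EpiSC, so that 1 stands for 2-fold. Of the 14 member probes, 13 stood well above background on at least 1 array, the dimmer Notch1 probe on neither, and 13 were printed as a single spot. Their GC content ran from 26.7% to 55%. A gene was read by its brightest detected probe and counted where its mean level was at least 7.5, which all 10 members passed. The error available is that of the spots: over 399 probes printed 10 times, differences between arrays varied from spot to spot with an SD (root mean square) of 0.098, which leaves out labelling and culture. In bulk RNA, fewer cells with a transcript and less of it per cell cannot be told apart.

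**Figure D1:**
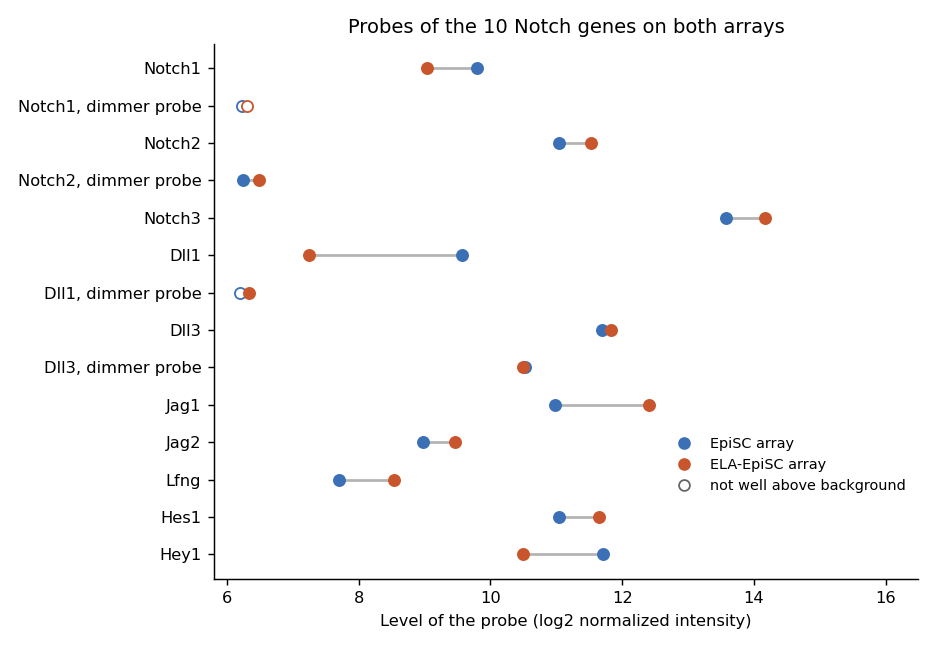
Level of each of the 14 probes of the 10 Notch genes (x axis, log2 normalized intensity) on the EpiSC array (blue) and the ELA-EpiSC array (orange), with open circles where a probe was not well above background. Dll1 and Hey1 lie clearly to the left, and Jag1 to the right, on the ELA-EpiSC array, while the remaining probes moved by less than 1. Levels of different probes are not comparable.

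Jag1 was higher in ELA-EpiSC, and Dll1 and Hey1 were higher in EpiSC, by more than 1 on the log2 scale, while the other 7 members stayed within 1. Of the 10 members, 1 (10%) was past 1 in ELA-EpiSC, where 4.54% of the 16649 counted genes were, and 2 (20%) were past 1 in EpiSC, where 4.46% of counted genes were. The members were chosen with earlier results of these data known, and an excess over these shares was not tested. The median difference of the members was 0.48, with 7 above and 3 below 0, where 50.2% of counted genes were above 0 and the median of all 25851 detected genes was -0.01. In the spike-in scaling, also called spike-in probes set equal, 1 constant made the mean of 8 probes for spike-in control RNAs equal on both arrays. Before it, these probes differed by -0.86 to -0.26. The constant moved that median of all genes to 0.53 and put 6 members past 1 in ELA-EpiSC and 1 in EpiSC. Each member's distance from that median stays the same by construction. The signs of all 10 members were the same under the 14 other ways of processing that gave each a value. All of these reread the same 2 arrays, and the changes of detection filter left every member's value as it was.

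Among the receptors, which carry the signal from the cell surface to the nucleus, 0 of 3 were past 1. Notch1 read 9.80 in the EpiSC sample and 9.03 in that of ELA-EpiSC. The difference was -0.77, or 1.70-fold higher in EpiSC. Notch2 read 11.05 and 11.52, a difference of 0.48. Notch3 (chr17:32257848-32257907) read 13.58 and 14.16, a difference of 0.59. Notch1 was thus the receptor higher in EpiSC, while Notch2 and Notch3 were higher in ELA-EpiSC. Each difference was over 4 times the spot SD, but the median absolute difference of all counted genes was itself 0.28. Of the counted genes, 7.06% had a lower difference than Notch1, 14.5% a higher one than Notch2 and 11.0% a higher one than Notch3. Under the spike-in scaling the Notch1 difference shrank to -0.23, and those of Notch2 and Notch3 reached 1.01 and 1.12. The second probes were dim. That of Notch1, at base 8221 of its transcript, read 6.23 and 6.30 with neither above background. That of Notch2, at base 7448 against 10129 for the brighter one, was detected on both arrays at 6.24 and 6.48, a difference of 0.24 in the direction of the brighter probe.

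The ligands differed in both directions. Dll1, the Delta ligand that activates receptors in the presomitic mesoderm and in neural progenitors, gave the widest difference of any member. It was also the member with its own spot error, since its probe was printed 10 times per array. On the EpiSC array the 10 spots ran from 9.36 to 9.87 with a median of 9.52 (mean 9.57 ± 0.19, SD over 10 spots), and on the ELA-EpiSC array from 7.05 to 7.53 with a median of 7.18 (mean 7.24 ± 0.15, SD over 10 spots). The spots of the 2 arrays did not overlap, and their paired differences lay between -2.49 and -1.91, with a mean of -2.33 ± 0.18 (SD over 10 spots), or 5.02-fold higher in EpiSC. Before normalization the spot signal ran from 562 to 817 intensity units for EpiSC and from 101 to 161 for ELA-EpiSC. Only 0.745% of the counted genes had a lower difference than Dll1. The size depended on the processing, at -2.81 with an offset of 0, -3.02 with the processed signal and -1.79 with the spike-in scaling. The 10 Dll1 spots repeat the measurement of 1 RNA pool, not the culture.

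The second Dll1 probe did not show this difference. It lies at base 51 of an Ensembl transcript, whereas the probe above lies at base 3063 of the RefSeq transcript. This second probe was above background on the ELA-EpiSC array only, with levels of 6.19 (EpiSC) and 6.33 (ELA-EpiSC), at least 1.11-fold higher in ELA-EpiSC. Its single spot read 39.1 and 50 intensity units over a local background of 25 and 26. So close to background, it gives no clear direction or size for Dll1. Averaging both probes left a Dll1 difference of -1.09. The call for Dll1 therefore rests on 1 probe sequence.

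**Figure D2:**
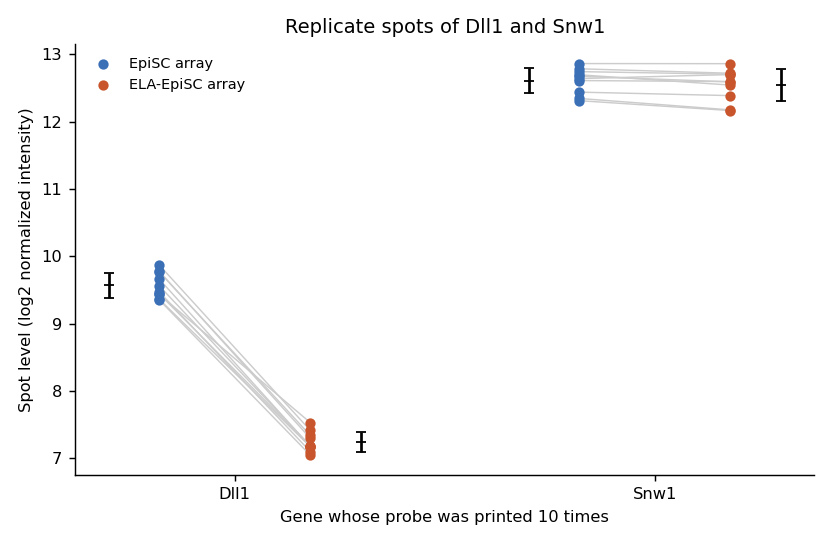
Spot levels (y axis, log2 normalized intensity) of the probes for Dll1 and for Snw1, a nuclear partner of RBPJ, each printed 10 times, on the EpiSC array (blue) and the ELA-EpiSC array (orange). Grey lines join the same position on both arrays, and black bars give the mean and SD over 10 spots. The Dll1 spots are separated by over 1.5 on the log2 scale, and those of Snw1 overlap and differ by -0.07.

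Jag1, a Jagged ligand, was higher in ELA-EpiSC, where it read 12.41, than in EpiSC, where it read 10.98. The difference was 1.43, or 2.70-fold. Of the counted genes, 2.24% had a higher difference. Jag2, its paralog (chr12:114146887-114146946), read 9.46 in ELA-EpiSC against 8.98 in EpiSC, a difference of 0.49. The Jagged ligands were thus both higher in ELA-EpiSC, Jag1 past 1 under all 14 other settings and Jag2 under the spike-in scaling alone, at 1.02. Dll3, a Delta relative that works inside the cell and does not activate receptors on neighbours, hardly differed. Its brighter probe (chr7:29078763-29078822) read 11.69 and 11.82, a difference of 0.14, and its dimmer one (chr7:29079061-29079120) 10.52 and 10.50, a difference of -0.02, so that its probes differed in sign.

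Lfng encodes a Golgi enzyme that adds sugars to Notch receptors and shifts their preference towards Delta ligands. At its probe (chr5:141091224-141091283) the level was 7.70 for EpiSC against 8.54 for ELA-EpiSC, which makes 0.84 or 1.79-fold. Its mean level was 8.12, and an offset added to the signal narrows differences more the dimmer a probe is. The difference was 1.02 with an offset of 0, 1.05 with the processed signal and 1.37 with the spike-in scaling.

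The targets differed in opposite directions. Hes1, a repressor that delays neuronal differentiation, was at 11.66 in ELA-EpiSC against 11.04 in EpiSC, a difference of 0.61 or 1.53-fold. Hey1, a related repressor known from vessels and somites, read 11.71 and 10.50, a difference of -1.22 or 2.32-fold higher in EpiSC. Of the counted genes, 2.99% had a lower difference than Hey1 and 10.3% a higher one than Hes1. Hey1 fell short of 1 when the arrays were scaled on their medians, at -0.97, and when the spike-in probes were set equal, at -0.68, and each target was read by 1 probe and 1 spot per array.

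**Figure D3:**
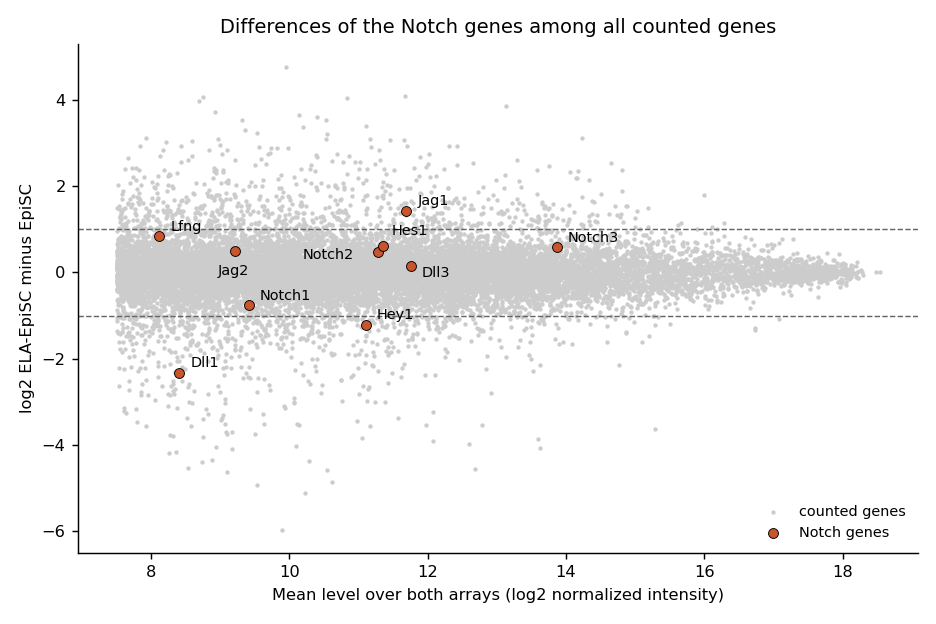
Difference (y axis, log2 ELA-EpiSC minus EpiSC) against mean level over both arrays (x axis, log2 normalized intensity) for the 16649 counted genes (grey) and the 10 Notch genes (orange), with dashed lines at -1 and 1. Jag1 lies above the upper line, Dll1 and Hey1 below the lower one, and the other 7 between the lines.

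Promoter sequences from RefSeq (GRCm38.p6) were at hand for 8 of the 10 members, all but Hes1 and Hey1. The letters TGGGAA, the core of the sequence that RBPJ binds, were searched on both strands in the 250 bases before each start, where 21.6% of 32851 promoters held them. They occurred in 1 of the 8 members, Lfng, in 2 places, the second of which shares 2 bases with a CACGTG, an E-box of the kind bound by Hes and Hey proteins that 6.02% of promoters held. The stretch is shown with those letters in capitals, TTCCCA being TGGGAA on the other strand.
Lfng, chr5:140607186-140607258, plus strand: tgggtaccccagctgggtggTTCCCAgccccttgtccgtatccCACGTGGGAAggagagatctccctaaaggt
Outside the members, the promoter of Hes5 held TGGGAA in 2 places and that of Hey2 in 1, and that of Nrarp held a CACGTG. Such letters were therefore not particular to Lfng. The matches are a description of letters. No binding was measured.

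Other genes of the pathway, a list of 69 by role likewise chosen with earlier results known, were read in the same way. Probes of 66 were detected, 59 were counted, and the median difference of the 66 was 0.10. Past 1 were 5 in ELA-EpiSC (8.47% of those counted, beside 4.54% of all genes) and 1 in EpiSC (1.69%, beside 4.46%). The gene past 1 in EpiSC was Mfng, the Manic fringe enzyme that like Lfng modifies receptors, which read 10.93 and 9.39, a difference of -1.54, with -1.81 on its second probe. Mfng and Lfng therefore differed in opposite directions, with Mfng at -1.68 to -1.005 over the 12 ways of normalizing, while Rfng, the third fringe, differed by 0.12.

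Past 1 in ELA-EpiSC were Dner (6.95 and 8.47, a difference of 1.52), a transmembrane protein resembling Delta, and Mib2 (11.47 and 12.67, a difference of 1.20), a ubiquitin ligase that acts on ligands. Dtx3l, of the Deltex ubiquitin ligases, read 9.48 and 11.01, a difference of 1.53, with 0.30 and 0.43 on its 2 dim probes. The targets Myc and Ccnd1, which many other signals also control, differed by 1.47 and 1.14. These 5 genes came from 4 roles, and no role but that of the other targets had more than 1 of them. Of all 59 counted pathway genes, 33 were above and 26 below 0.

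No gene of the nuclear complex or of receptor cleavage was past 1. Rbpj itself read 11.28 and 11.47, a difference of 0.20, and its coactivator Maml1 11.72 and 12.60, a difference of 0.88, the widest in the nuclear complex. In that group 6 of 7 counted genes were above 0, with a median of 0.36. For receptor cleavage 6 of 7 counted genes were below 0, with a median of -0.30, but with the spike-in probes set equal 5 of 7 were above 0 and the median was 0.24. Its widest difference was that of Aph1a, a subunit of gamma-secretase, at -0.92. Adam10, which makes the first cut, differed by -0.30.

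Of the remaining roles, the widest differences within 1 were 0.88 for the corepressor Spen and -0.95 for the target Hes5. Hes5, a repressor active in neural progenitors, read 8.42 and 7.47. Over the 12 ways of normalizing it differed by between -1.32 and -0.41. The probes of the corepressor Tle2, chosen after its values were seen, gave -0.01 and -1.68. The inhibitor Numb and the target Nrarp, which limits signalling, both differed by -0.06. Notch4 differed by 0.23. Hey2 and Dll4 were too dim to count, at 6.90 and 6.34 and at 6.48 and 6.43. Heyl was above background on the EpiSC array only, at 6.47 against 6.17, at least 1.23-fold higher in EpiSC with the values as reported. Over the 12 ways of normalizing the Heyl difference lay between -1.63 and 0.24, so that its sign depended on the processing. Hes3 and Helt were above background on neither array, and no probe was named Aph1c. Of 8 other Hes and Hey genes, 0 of the 3 counted were past 1.

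**Figure D4:**
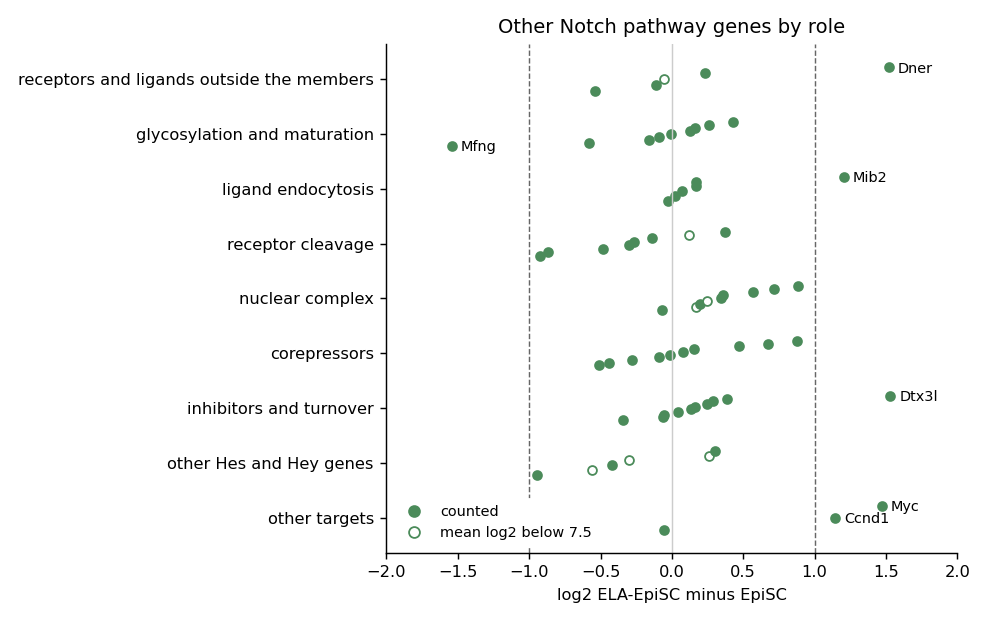
Difference (x axis, log2 ELA-EpiSC minus EpiSC) of the 66 detected Notch pathway genes outside the 10 members, grouped by role (y axis), with filled circles for counted genes, open circles for genes with a mean level below 7.5 and dashed lines at -1 and 1. Mfng lies below -1, Dner, Mib2, Dtx3l, Myc and Ccnd1 lie above 1, and the other 53 counted genes lie between.

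Cell type markers were read beside the members. All 8 epiblast markers were detected on both arrays, among them Pou5f1 at 14.27 and 14.46, with 1 past 1, Zic2 at 1.68, 6 above 0 and a median difference of 0.17. The sum of the normalized intensities of the list was 292872 in EpiSC and 256843 in ELA-EpiSC. It was 155097 and 179646 without Dnmt3b, which added most to it, so its direction hung on that gene. Such sums are led by the brightest probes, whose levels are not comparable between genes, and include the offset added to each signal. They do not measure a share of cells. Of the lists of cells that use Dll1, the presomitic mesoderm list had 0 of 4 counted genes past 1. Its summed intensity was 1920 and 1721, and its 6 detected genes had a median difference of -0.19, with 5 below 0. Meox1 was above background on neither array and Msgn1 on the EpiSC array only. The neural list had 1 of 3 past 1, Nes at 2.11, and a sum of 6298 and 23102, or 1392 and 1936 without Nes, while Pax6 and Olig2 were above background on neither array. Dll1 and the presomitic mesoderm list, by sum and by median, were thus lower in ELA-EpiSC. The neural list was higher there by sum and by median. That median was 0.32 over 6 detected genes, with 4 above and 2 below 0.

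Other lists also differed between the arrays. The endoderm list had 3 of 7 past 1, all higher in EpiSC (Hnf4a at -5.12, Gata4 at -2.39, and Ttr, detected in EpiSC only, at least 10.7-fold higher there), and a sum of 106203 and 80346. Of the primitive streak list 3 of 5 were past 1, where T at 2.48 and Mixl1 at 1.97 were higher in ELA-EpiSC and Mesp1 at -1.66 in EpiSC, with a sum of 30936 and 53019. The fibroblast list had 2 of 5 past 1, Col1a1 at 3.72 and Pdgfra at 1.77, with a sum of 3745 and 6484. Pdgfrb differed by 0.50, Col1a2 by 0.08 and Thy1 by 0.05, and Col3a1, too dim to count, by 1.88. All 6 detected fibroblast genes were above 0, with a median of 1.13, and the sum without Col1a2 was 1850 and 4481. The endothelial list, for cells that use Jag1 and Hey1, had 0 of 1 counted genes past 1 (Kdr at -0.43, with 1.49 on its dimmer probe), and Tie1 and Emcn above background on neither array. Its 6 detected genes had a median difference of 0.14, with 4 above 0, and a sum of 7252 and 5620, or 489 and 608 without Kdr. The part of these other cell types in the differences of Dll1, Jag1 and Hey1 was not tested.

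**Figure D5:**
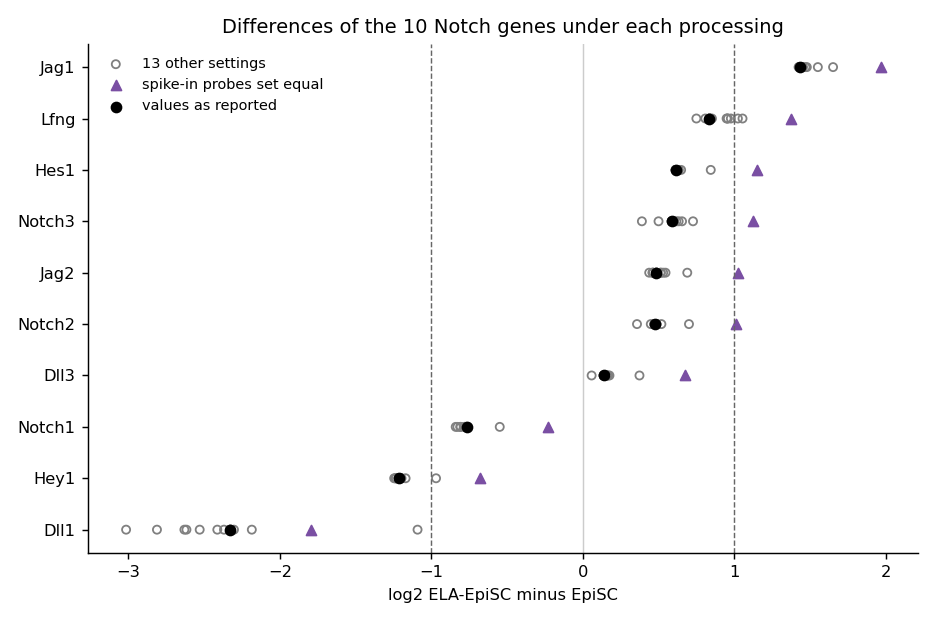
Difference (x axis, log2 ELA-EpiSC minus EpiSC) of each of the 10 Notch genes (y axis) as reported (black), with the spike-in probes set equal (purple triangles) and under 13 other ways of processing (open circles), with dashed lines at -1 and 1. No gene changed sign, Jag1 and Dll1 stayed past 1 throughout, and the spike-in scaling moved every gene to the right by 0.54.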

How the data were processed

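Each of the 2 arrays (Agilent SurePrint G3, Cy3) measured 1 pooled RNA, labelled from 50 ng per the labels and 200 ng per the methods. The authors deposited raw spot intensity (linear scale), obtained with Feature Extraction (10.7.3.1 per the file headers, 9.1 per the submitters' processing notes). Probe coordinates are mm9. The authors also deposited log2 values, background-corrected and quantile normalized with limma, with the correction's method and offset not given in the sources used here; they served as an alternative.

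Mean spot signal was corrected by normexp (offset 50, local median background, all spots) with limma 3.58.1 in R 4.3.3. Control spots and outlier spots (158 on the EpiSC and 117 on the ELA-EpiSC array) were left out, arrays were quantile normalized, and spots of a probe averaged as log2. Quantile normalization hides a shift shared by all genes. A probe was detected where the scanner software marked a share of 0.5 or more of its spots as well above background (36645 and 36206 probes), and 0 spots were saturated. For genes detected on 1 array, the bound is against the dim probe's own level or the lowest detected level of that array (5.89 and 6.11), whichever was higher. The median spot signal was 71.7 and 79.1 intensity units over a local background of 26 and 25. With 1 array per group, no test was run. Both arrays came from 1 slide and 1 scan. The steps were tested on simulated data. Of the 14 member probes, 13 carry a transcript that RefSeq gives the same name.

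The text names all members, pathway genes past 1, detected on 1 array or widest in their role, core genes, and markers past 1 or at background, with 1 core gene not reported here. The members and lists were chosen with earlier results of these data known. Alternatives covered background correction, scaling, spot signal, probe choice, filters, thresholds and the deposited values.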

Additional observations from a re-analysis of the deposited data

How the results depend on the processing

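The direction of all 10 members was the same under the 14 alternatives that gave each a difference. Of these 140 differences, 106 moved by less than the spot SD. That count includes values that could not move. Changing the detection filter left all 10 members at the same probe and value. Averaging detected probes could change only members with more than 1 of them. Members past 1 in ELA-EpiSC numbered 2 with an offset of 0 or the processed signal, 6 with the spike-in probes set equal, 4 at a threshold of 1.5-fold and 0 at 2.5, against 1 as reported. Members past 1 in EpiSC numbered 1 with median scaling, with the spike-in probes set equal and with a minimum mean level of 9, which Dll1 missed at 8.41, 3 at 1.5-fold and 0 at 2.5, against 2. Their median moved from 0.48 to 0.70 with median scaling and 1.02 with the spike-in probes. Relative to the median of all genes, which was 0.53 with the spike-in probes and -0.18 with the 75th percentile after normexp, the members stood 0.49 higher and 0.65 higher.

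Of the other pathway genes, 5 were past 1 in ELA-EpiSC as reported, 11 with the spike-in probes, 9 at 1.5-fold and 0 at 2.5. In EpiSC there was 1 as reported, 2 with an offset of 16, no background correction, the 75th percentile after normexp or the deposited values, 3 with an offset of 0 or the processed signal, 4 at 1.5-fold and 0 at 2.5. Their median of 0.10 became -0.034 with the processed signal, -0.05 with the 75th percentile after normexp and 0.63 with the spike-in probes. Over all genes, 756 were past 1 in ELA-EpiSC and 742 in EpiSC, against 2488 and 306 with the spike-in probes, 1846 and 1823 at 1.5-fold, and 67 and 108 at 2.5, and 481 in EpiSC with a minimum mean level of 9. The cause of the spike-in shift was not tested.

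Leaving out a replicate was not possible with 1 array per group. No paired analysis was possible because 1 array per group leaves no pairs. Spot noise is the only error measured, and dim probes are limited by the background.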
